A study of Mus musculus with 16 samples.

Results

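Glucose metabolism was followed in 33 genes that encode glucose transporters, the enzymes of each step of glycolysis, lactate dehydrogenase and the lactate carriers, a pyruvate dehydrogenase kinase, and enzymes that build and break down glycogen. They were picked by symbol from the deposited count table, where the 33 symbols matched 34 of 55335 rows because Aldoa has 2. RNA with poly-A tails was sequenced from CD8 T cells, which recognise and kill infected or malignant cells, enriched from spleens of C57BL/6 mice. The groups were Batf3 ko cells at 72 h, wild-type (wt) cells at 72 h, Batf3 ko cells at 48 h and wt cells at 48 h, with 4 libraries in each and 16 in all. All groups, wt included, were cultured in IL-15 (50 ng/ml) on plates coated with antibodies to CD3 and CD28, each used at 1 µg/ml, so no group shows resting cells. The ko mice carry the Batf3-/- genotype, and how the allele was made is not stated in the labels. The submitters describe the 4 libraries per group as technical replicates. The p-values therefore measure how far such libraries scatter, and they say nothing of the scatter among mice. Batf3 is an AP-1 family transcription factor with a leucine zipper. Each gene was compared between ko and wt cells at 72 h and at 48 h and between the times in each genotype, and the change of the ko effect between the times was tested as an interaction.

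As background, activated T cells raise glucose uptake and convert much of the glucose to lactate even where oxygen is present, which yields energy and building blocks for growth. Glucose enters through facilitative carriers of the Slc2a family, is trapped by hexokinase, passes phosphofructokinase, the main regulated step, and is split into triose phosphates that are oxidised to pyruvate. Several steps can be run by different isozymes, which are encoded by separate genes and differ in regulation and tissue. Glycogen, a branched polymer of glucose, is made from UDP-glucose and broken down by glycogen phosphorylase, and in mouse memory CD8 T cells its breakdown has been described as a source of glucose 6-phosphate for the pentose phosphate pathway.

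The libraries held 29375818 to 39241169 counts. Levels are given as CPM, the counts of a gene per 1000000 counts of its library. Batf3 itself reached 0 to 0.366 CPM in ko cells against 28.7 to 34.2 CPM in wild-type cells at 72 h, and 0.0585 to 0.189 CPM in ko cells against 75.8 to 87.7 CPM in wild-type cells at 48 h, so all 16 libraries matched their genotype label. The 5 CD8 T cell markers were present in each library (summed 1624 to 1659 CPM in ko and 1548 to 1594 CPM in wild-type cells at 72 h, and 1130 to 1199 CPM in ko and 1120 to 1149 CPM in wild-type cells at 48 h). Ko 48 h replicate 4 and wt 72 h replicate 4 stood apart from their groups, with a root mean square deviation from the group mean of 0.175 and 0.163 on the log2 scale over 9191 expressed genes, against 0.0819 to 0.122 in the other libraries. The ko over wild-type fold change went down with exon length: Spearman's correlation between them was -0.35 at 72 h and -0.40 at 48 h over those 9191 genes, which are not independent, and what the trend adds to the values given here was not tested beyond the offsets described next to the counts. In bulk RNA, fewer cells that express a gene and less of its RNA per cell cannot be told apart.

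At 72 h 7 genes of the glycolytic chain (Gpi1, Aldoa, Tpi1, Gapdh, Pgk1, Pkm and Ldha) were higher in ko than in wild-type cells, and Pfkl, Pfkm, Pfkp, Pgam1 and Eno1 were not called, while the sugar carrier Slc2a6 and both hexokinases were lower and the liver form of glycogen phosphorylase, Pygl, stood almost 2-fold higher. At 48 h few of the genes differed. A gene counted as called when its p-value from edgeR's quasi-likelihood test, adjusted by the Benjamini-Hochberg method over all 15197 genes tested, was below 0.05; all 34 rows passed the filter on low counts. Of the 34 rows, 21 were called between ko and wild type at 72 h, 14 higher and 7 lower, against a background of 36.4% of all genes called (16.9% higher and 19.5% lower). The median log2 fold change was 0.16 over the 34 rows and -0.0154 over all genes. At 48 h, 4 rows were higher and 0 lower (background 7.07%, of which 4.41% higher), and the median was 0.00 over the rows against 0.0113 over all genes. That background moved with single libraries: it was 3.42% without wt 48 h replicate 1, 3.43% without ko 48 h replicate 2, 3.76% without wt 48 h replicate 2, 3.99% without ko 48 h replicate 1 and 12.9% without ko 48 h replicate 4, with 3 to 5 rows called when any 1 library was left out. At an unadjusted p below 0.05 in edgeR 2 rows were lower at 48 h, and DESeq2 and limma-voom, like edgeR, called 0 lower. Changes of at least 2-fold numbered 1 row at 72 h (Slc2a6; 2.76% of all genes) and 0 at 48 h (0.645% of all genes). Libraries of the ko and wild-type groups did not overlap in CPM for 16 rows at 72 h and 6 at 48 h. The share of all genes without such overlap was not counted, so these counts have no background to be set against.

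The ko effect itself changed between the times in 6 rows, where the background was 5.61% of genes (2.08% higher and 3.53% lower): the interaction of genotype and time was positive for Aldoa, Tpi1, Gapdh and Pgk1 and negative for Slc2a6 and Eno3. The interaction background was 3.03% without wt 72 h replicate 3, 3.15% without ko 48 h replicate 3, 3.31% without wt 48 h replicate 4 and 3.51% without wt 48 h replicate 1. It was higher, at 6.92%, without wt 72 h replicate 4, 6.61% without ko 48 h replicate 1 and 6.01% without ko 48 h replicate 4. Without both libraries that stand apart it was 7.55%. The median interaction was 0.08 over the 34 rows and -0.0389 over all genes, and 1 row, Slc2a6, passed at 2-fold or more (0.454% of all genes). Fold changes were computed after TMM scaling, which sets the middle of the gene distribution level between libraries, and CPM values were not. With library totals alone as the scaling, the median of all genes at 72 h moved to -0.14, and the members called were 8 higher and 8 lower instead of 14 and 7. Gpi1, Aldoc, Ldha, Pygm, Ugp2 and Pgm2 were the members that lost their call there. With offsets that removed each library's trend with exon length, 17 rows were higher and 6 lower at 72 h, and 5 higher and 0 lower at 48 h.

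**Figure D1:**
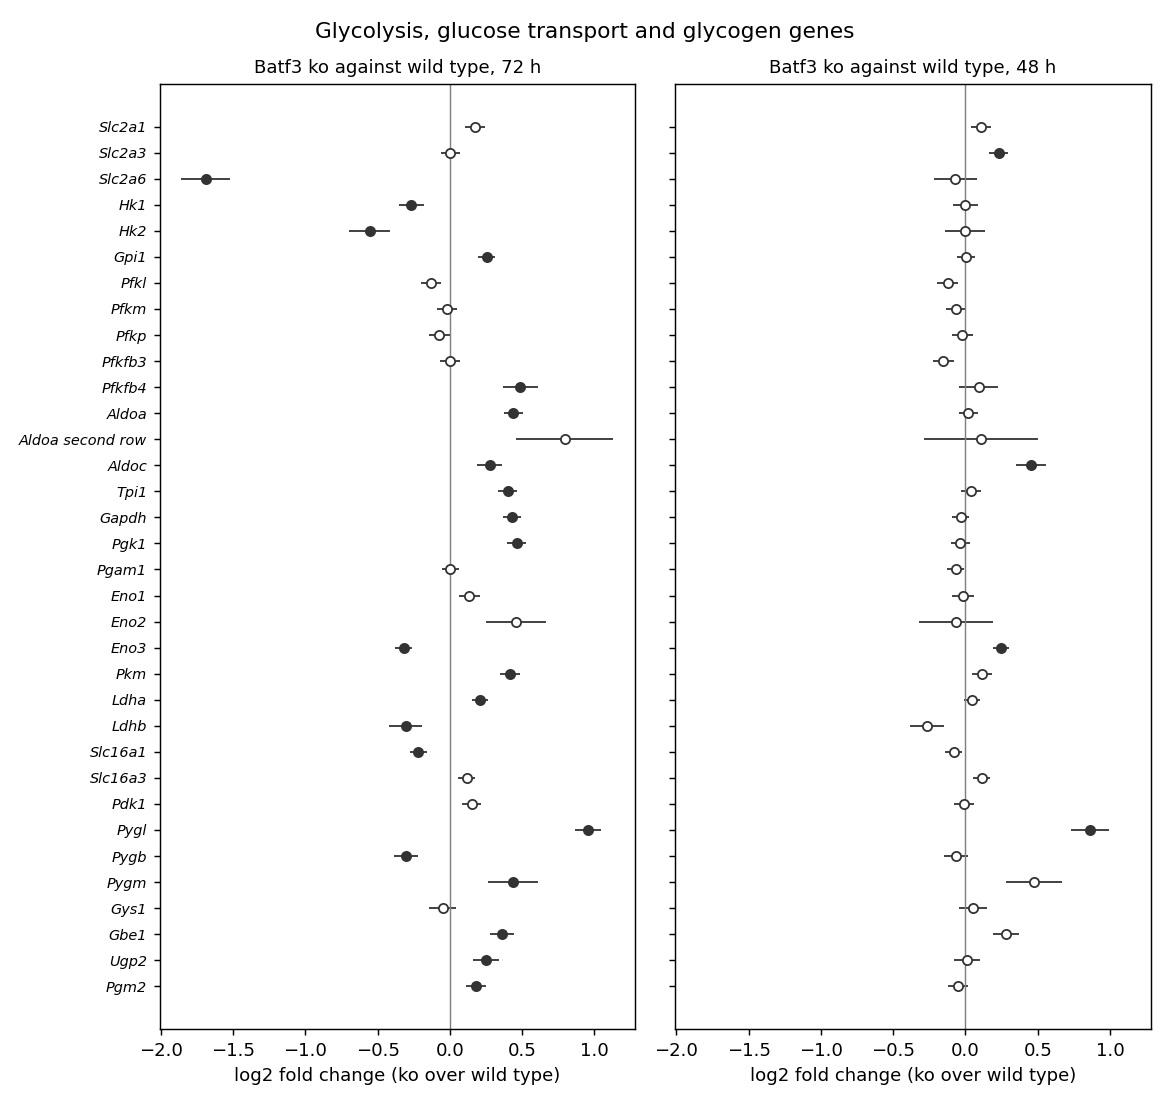
Log2 fold change of ko over wild type (x axis) for the 34 rows in pathway order (y axis), at 72 h on the left and 48 h on the right; lines are standard errors, filled points passed an adjusted p of 0.05 and open points did not. Slc2a6 at -1.69 and Pygl at 0.96 lie farthest from 0 at 72 h, and Pygl at 0.86 does at 48 h.

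Promoter sequence was set beside the expression data for 4 members, Pygl and Pgk1, which were higher in ko cells at 72 h, and Slc2a6 and Hk2, which were lower. Each run gives the 250 bases before a start of the gene in RefSeq (build GRCm38.p6), 5′ to 3′ on the gene's own strand; the RefSeq start of Pygl lies inside the longer GENCODE gene model, which begins at 70231488, and the other 3 runs stop at the start in both. Capitals mark ACGTG, the core of the hypoxia response element, on either strand (CACGT is its reverse complement).
Pygl (chr12:70227684-70227933, minus strand): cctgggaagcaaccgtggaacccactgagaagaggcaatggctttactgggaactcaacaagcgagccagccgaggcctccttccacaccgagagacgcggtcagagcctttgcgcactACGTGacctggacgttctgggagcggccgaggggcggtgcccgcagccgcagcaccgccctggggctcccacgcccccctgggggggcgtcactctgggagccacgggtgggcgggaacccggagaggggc
Pgk1 (chrX:106186850-106187099, plus strand): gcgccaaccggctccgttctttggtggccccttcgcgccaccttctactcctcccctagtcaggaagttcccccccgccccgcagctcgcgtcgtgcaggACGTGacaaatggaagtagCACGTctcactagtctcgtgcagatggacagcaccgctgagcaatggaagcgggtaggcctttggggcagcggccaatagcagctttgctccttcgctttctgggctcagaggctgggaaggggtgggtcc
Slc2a6 (chr2:27027999-27028248, minus strand): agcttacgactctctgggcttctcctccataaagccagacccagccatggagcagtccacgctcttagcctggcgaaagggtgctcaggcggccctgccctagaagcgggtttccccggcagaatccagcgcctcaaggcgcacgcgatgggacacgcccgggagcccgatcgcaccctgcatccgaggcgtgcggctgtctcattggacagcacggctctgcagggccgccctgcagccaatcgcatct
Hk2 (chr6:82774455-82774704, minus strand): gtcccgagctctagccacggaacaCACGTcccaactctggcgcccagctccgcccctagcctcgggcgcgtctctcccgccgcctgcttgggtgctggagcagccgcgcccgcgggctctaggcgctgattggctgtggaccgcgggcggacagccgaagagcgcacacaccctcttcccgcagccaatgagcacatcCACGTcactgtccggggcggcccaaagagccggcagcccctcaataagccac
The core is present 1 time in the Pygl window and 2 times in those of Pgk1 and Hk2, so it stands before genes that were higher and before one that was lower in ko cells. Promoter entries matched 32 of the 33 symbols, with 46 promoters in all. ACGTG was present on either strand in 19 of these 46 (41.3%) and in 16.6% of all 32851 promoters of the same length. CACGTG, the E-box of the Myc family, which contains ACGTG, was in 4 of the 46 (8.70%) and in 6.02% of all promoters. TGANTCA, the AP-1 site, was in 1 of the 46 (2.17%), an Aldoa promoter, and in 6.75% of all promoters.

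Among the glucose carriers the difference at 72 h lay in Slc2a6, the least abundant of the 3 per kb of exon. Slc2a6 (chr2:27021363-27027998), which encodes the carrier GLUT6, had 2.24, 2.13, 3.46 and 4.46 CPM in the 4 ko libraries at 72 h, against 9.44, 10.8, 12.5 and 10.4 CPM in wild type. All ko libraries were below all wild-type libraries. The log2 fold change was -1.69 (SE 0.17, edgeR adjusted p = 1.27e-07). At 48 h the same gene had 10.3, 9.46, 12.8 and 13.4 CPM in ko and 12.002, 12.4, 13.2 and 11.8 CPM in wild-type cells, which overlap, and the log2 fold change of -0.07 had a 95% interval of -0.36 to 0.22. The difference between the 2 ko effects, the interaction, was -1.62 (SE 0.23, edgeR adjusted p = 0.000266).

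Slc2a3 (chr6:122727809-122801640), the high-affinity carrier GLUT3, was called at 48 h and not at 72 h. At 48 h it had 172, 175, 174 and 173 CPM in ko cells, against 142, 150.0, 165 and 149 CPM in wild-type cells. The groups did not overlap, and the log2 fold change was 0.23 (SE 0.07, edgeR adjusted p = 0.0361). The call was lost without ko 48 h replicate 1, 2 or 3 or wt 48 h replicate 1, 2 or 4 (edgeR adjusted p up to 0.141), with library-size scaling (edgeR adjusted p = 0.0646) and, just, with median-ratio scaling (edgeR adjusted p = 0.0500124). At 72 h Slc2a3 had 874, 879, 836 and 883 CPM in ko and 1069, 988, 884 and 843 CPM in wild-type cells, and its log2 fold change had a 95% interval of -0.13 to 0.13. The interaction for Slc2a3 was -0.23 (edgeR adjusted p = 0.16), and it passed with library-size scaling (-0.32, edgeR adjusted p = 0.0287). Slc2a1, the main carrier of activated T cells (GLUT1), averaged 211 ± 7.97 CPM in ko and 204 ± 27.0 CPM in wild-type cells at 72 h (SD, n = 4 each) and missed the threshold at a log2 fold change of 0.18 (edgeR adjusted p = 0.0508), which it passed without ko 48 h replicate 4, wt 72 h replicate 1 or wt 72 h replicate 2 (edgeR adjusted p down to 0.0102). It also passed with exon length offsets (edgeR adjusted p = 0.0278), a filter of 50 counts (0.043), median-ratio scaling (0.0499693), limma-voom (0.0383) and DESeq2 (0.0463).

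Both hexokinases, which phosphorylate glucose and so hold it in the cell, were lower in ko cells at 72 h. Hk2 (chr6:82725025-82774454), the form induced by activation, had 68.6, 68.7, 58.1 and 78.8 CPM in ko libraries, against 127, 109, 113 and 91.3 CPM in wild type. Hk1, the form present in most tissues, had 163, 169.8, 148 and 173 CPM in ko libraries, against 236, 223, 221 and 179 CPM in wild type. For both genes each ko library was below each wild-type library. The log2 fold changes were -0.56 for Hk2 (SE 0.14, edgeR adjusted p = 0.00526) and -0.27 for Hk1 (SE 0.09, edgeR adjusted p = 0.0171). The Hk1 call was lost with exon length offsets (log2 fold change -0.14, edgeR adjusted p = 0.133) and without ko 72 h replicate 3 or wt 72 h replicate 1 or 2 (edgeR adjusted p up to 0.0663). Summed over both genes, hexokinase RNA was 232 ± 18.9 CPM in ko and 325 ± 38.7 CPM in wild-type cells at 72 h (SD, n = 4 each).

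At 48 h 1 ko library held far more Hk2 than the other 3. Hk2 had 95.0, 102, 109 and 179 CPM in the 4 ko libraries, the last value being replicate 4, which stands apart, against 129, 125, 124 and 117 CPM in wild type. With all libraries the log2 fold change at 48 h had a 95% interval of -0.28 to 0.27. Without ko 48 h replicate 4 it was -0.23 and not called (edgeR adjusted p = 0.0778), and without both that library and wt 72 h replicate 4 it was -0.23 (edgeR adjusted p = 0.0277). The interaction for Hk2 was -0.55 (edgeR adjusted p = 0.116) with all libraries and -0.40 without those 2 (edgeR adjusted p = 0.0131); it also passed with no filter on low counts (edgeR adjusted p = 1.54e-05).

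Glucose-6-phosphate isomerase and 1 of the regulators of phosphofructokinase were higher at 72 h, and phosphofructokinase itself was not called. Gpi1, the isomerase, had 1253, 1273, 1259 and 1298 CPM in ko and 1245, 1186, 1209 and 1016 CPM in wild-type libraries at 72 h, with no overlap and a log2 fold change of 0.25 (SE 0.06, edgeR adjusted p = 0.00183). With library-size scaling it was 0.13 (edgeR adjusted p = 0.123). The interaction for Gpi1 was 0.25 (edgeR adjusted p = 0.0817, and 0.0355 without ko 48 h replicate 4). It also passed with exon length offsets (0.30, edgeR adjusted p = 0.0157) and in DESeq2 (0.27, DESeq2 adjusted p = 0.0186). Pfkfb4, which makes and removes fructose 2,6-bisphosphate, the activator of phosphofructokinase, had 7.25, 10.3, 10.4 and 10.1 CPM in ko and 8.65, 6.95, 7.35 and 6.69 CPM in wild-type libraries. Ko replicate 1 lay within the wild-type range and the other 3 above it, with a log2 fold change of 0.49 (SE 0.12, edgeR adjusted p = 0.00341). Its more abundant relative Pfkfb3 averaged 109 ± 5.96 CPM in ko and 119 ± 14.5 CPM in wild-type cells (SD, n = 4 each), with a 95% interval of -0.14 to 0.14 for the log2 fold change. At 48 h the Pfkfb3 groups did not overlap, at 45.3 to 51.4 CPM in ko and 51.6 to 58.6 CPM in wild-type cells. The log2 fold change of -0.15 was not called (edgeR adjusted p = 0.209).

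The 3 phosphofructokinase genes were not called between genotypes at either time. At 72 h the 95% intervals of the log2 fold change were -0.27 to 0.01 for Pfkl, the liver form, -0.15 to 0.11 for Pfkm, the muscle form, and -0.22 to 0.07 for Pfkp, the platelet form. Pfkl had 178, 185, 165 and 184 CPM in ko and 239, 226, 215 and 173 CPM in wild-type libraries, where only wild-type replicate 4, which stands apart, fell within the ko range. Without that library the log2 fold change of Pfkl was -0.21 (edgeR adjusted p = 0.00933), and Pfkl also passed with library-size scaling (-0.26, edgeR adjusted p = 0.00861). Without both libraries that stand apart Pfkp reached -0.13 (edgeR adjusted p = 0.0471). At 48 h the Pfkl groups did not overlap, at 186 to 217 CPM in ko and 218 to 228 CPM in wild-type cells. The log2 fold change of -0.12 was not called (edgeR adjusted p = 0.311).

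From aldolase to phosphoglycerate kinase every step was higher in ko cells at 72 h and close to wild type at 48 h. Aldoa (chr7:126795234-126800751), the aldolase of most tissues, had 2501, 2517, 2446 and 2588 CPM in ko libraries at 72 h, against 2227, 2035, 2090.2 and 1745 CPM in wild type. Tpi1 (chr6:124810586-124814296), which interconverts the triose phosphates, had 1951, 1978, 2067 and 1914 CPM in ko libraries, against 1623, 1664, 1640.5 and 1620.4 CPM in wild type. In both genes the 4 ko libraries lay above the 4 wild-type libraries. Gapdh (chr6:125161715-125166467), the dehydrogenase that makes the pathway's NADH, had 6524, 6705, 6966 and 7128 CPM in ko libraries, against 5746, 5443, 5824 and 5137 CPM in wild type. Pgk1 (chrX:106187100-106203699), the first kinase to return ATP, had 4047, 3737, 3888 and 3546 CPM in ko libraries, against 3009, 3045, 2961 and 3043 CPM in wild type. These groups did not overlap either.

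The log2 fold changes at 72 h lay within a narrow span. They were 0.44 for Aldoa (SE 0.07, edgeR adjusted p = 1.5e-05), 0.40 for Tpi1 (SE 0.07, edgeR adjusted p = 7.85e-05), 0.43 for Gapdh (SE 0.06, edgeR adjusted p = 8.34e-06) and 0.46 for Pgk1 (SE 0.07, edgeR adjusted p = 8.97e-06). At 48 h none of the 4 was called, and the means differed by less than the SD of the ko libraries. Aldoa averaged 1098 ± 119 CPM in ko and 1107 ± 34.7 CPM in wild-type cells at 48 h (SD, n = 4 each, as for the next 3 genes). Tpi1 averaged 1402 ± 128 CPM in ko and 1403 ± 70.8 CPM in wild-type cells. Gapdh averaged 4439.7 ± 242 CPM in ko and 4657 ± 187 CPM in wild-type cells, and Pgk1 1911 ± 128 CPM in ko and 2013 ± 68.2 CPM in wild-type cells. The interaction was 0.42 for Aldoa (edgeR adjusted p = 0.00793), 0.36 for Tpi1 (edgeR adjusted p = 0.0274), 0.46 for Gapdh (edgeR adjusted p = 0.00237) and 0.50 for Pgk1 (edgeR adjusted p = 0.00237). The call for Tpi1 was lost without wt 48 h replicate 3 or 4, ko 72 h replicate 3 or wt 72 h replicate 3 (edgeR adjusted p up to 0.0677). Aldoa, Tpi1, Gapdh, Pgk1, Ldha and Eno1 have near-identical processed copies in the mouse genome, so how their reads were divided is uncertain.

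**Figure D2:**
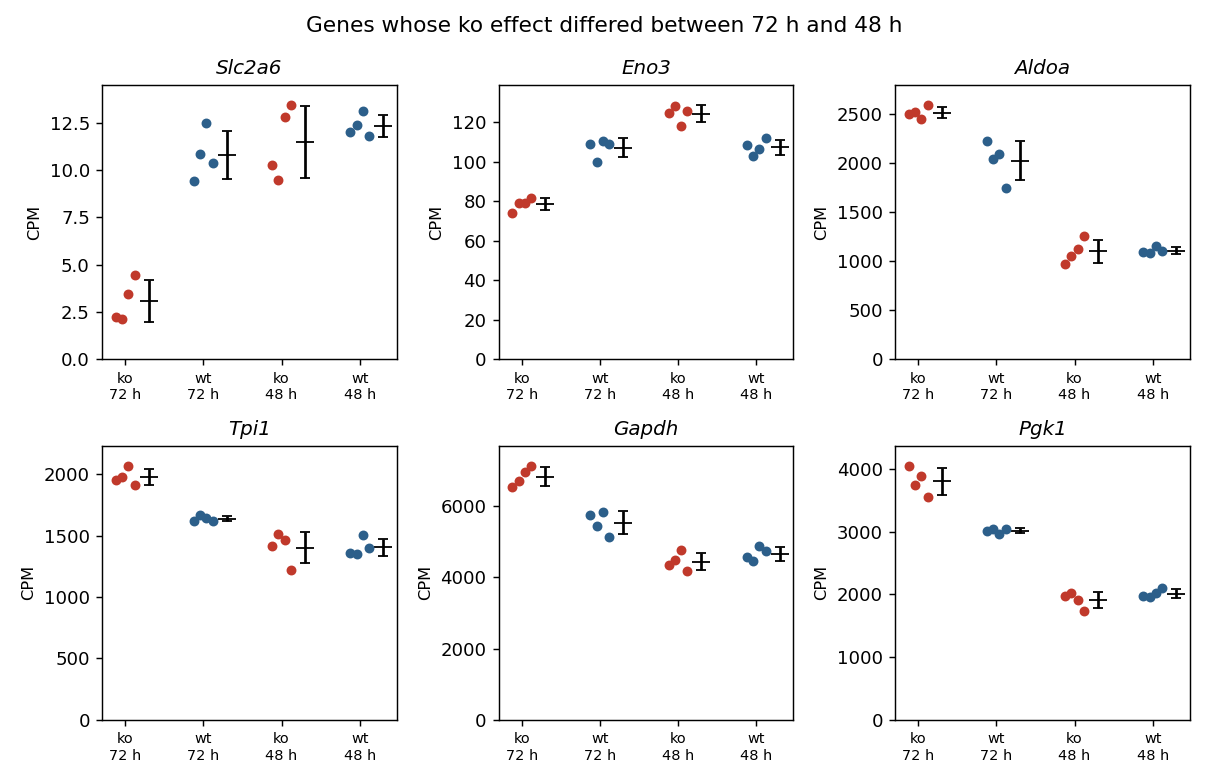
CPM (y axis, from 0) in each library of the 4 groups (x axis, ko red and wild type blue) for the 6 genes whose ko effect differed between the times; each point is 1 library and the black bar is the mean with its SD. At 72 h the 4 ko libraries lie below wild type for Slc2a6 and Eno3 and above it for Aldoa, Tpi1, Gapdh and Pgk1, and at 48 h Eno3 is the only one of the 6 whose groups do not overlap.

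Aldoc, the aldolase best known from brain, was higher in ko cells at both times. At 72 h it had 132, 136, 159.9 and 169.9 CPM in ko and 137, 128, 147 and 129 CPM in wild-type libraries, which overlap, with a log2 fold change of 0.27 (SE 0.09, edgeR adjusted p = 0.0171). The call at 72 h was lost with library-size scaling (0.15, edgeR adjusted p = 0.223) and without ko 72 h replicate 3 or 4 or wt 72 h replicate 2 (edgeR adjusted p up to 0.0789). At 48 h it had 9.28, 13.0, 11.8 and 14.5 CPM in ko and 8.27, 9.07, 9.98 and 8.97 CPM in wild-type libraries. Ko replicate 1 lay within the wild-type range and the other 3 above it, and the log2 fold change was 0.45 (SE 0.10, edgeR adjusted p = 0.00968). The second row named Aldoa (ENSMUSG00000114515, chr7:126800790-126809108) lies beside the main one and held 1.35 to 2.16 CPM in ko and 0.751 to 1.36 CPM in wild-type cells at 72 h; it was not called (log2 fold change 0.79, edgeR adjusted p = 0.068, and 0.0415 without ko 48 h replicate 2). That row also passed in a fit of only the groups compared (edgeR adjusted p = 0.0264), in limma-voom (adjusted p = 0.0465) and in DESeq2 (adjusted p = 0.0496).

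Below phosphoglycerate kinase the steps differed from each other. Pgam1, the mutase, was not called at either time and averaged 803 ± 43.8 CPM in ko and 874 ± 44.9 CPM in wild-type cells at 72 h (SD, n = 4 each), with a 95% interval of -0.11 to 0.12 for the log2 fold change. Eno1, the main enolase, averaged 2990.0 ± 116 CPM in ko and 2975 ± 194 CPM in wild-type cells at 72 h (SD, n = 4 each), with a log2 fold change of 0.13 (edgeR adjusted p = 0.157, and 0.0437 without ko 48 h replicate 4). Eno1 also passed as higher with exon length offsets (0.21, edgeR adjusted p = 0.0128) and in a fit of only the groups compared (0.15, edgeR adjusted p = 0.0419). Pkm (chr9:59656368-59679375), pyruvate kinase, was higher: it had 4029, 4075, 3935 and 4112 CPM in ko libraries at 72 h, against 3530.1, 3414, 3265 and 3037 CPM in wild type. The groups did not overlap and the log2 fold change was 0.41 (SE 0.07, edgeR adjusted p = 6.13e-05).

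At 48 h Pkm had 2402, 2419, 2513 and 3222 CPM in ko libraries, against 2596, 2348, 2519.9 and 2526 CPM in wild type. Ko replicate 4, which stands apart, was far above the other 3, which lay inside the wild-type range. The interaction for Pkm was 0.30 with all libraries (edgeR adjusted p = 0.0687) and 0.39 without that library (edgeR adjusted p = 0.00276). With all libraries it also passed with exon length offsets (edgeR adjusted p = 0.0149) and with no filter on low counts (edgeR adjusted p = 0.0409). DESeq2 (adjusted p = 0.0170) and limma-voom (adjusted p = 0.0464) called it as well. The counts do not separate the PKM1 and PKM2 isoforms, and the unnamed model Gm49759, which overlaps Pkm on the same strand, averaged 25.3 CPM.

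Eno3 (chr11:70657202-70662513), the muscle form of enolase, was the only member called in opposite directions at the 2 times. It had 74.3, 79.2, 79.2 and 81.9 CPM in ko libraries at 72 h, against 109, 100.0, 111 and 109 CPM in wild type. It had 125, 128, 118 and 126 CPM in ko libraries at 48 h, against 109, 103, 106 and 112 CPM in wild type. The groups did not overlap at either time, with ko below wild type at 72 h and above it at 48 h. The log2 fold change was -0.32 at 72 h (SE 0.06, edgeR adjusted p = 0.000102) and 0.25 at 48 h (SE 0.06, edgeR adjusted p = 0.00833), and the interaction was -0.57 (SE 0.08, edgeR adjusted p = 0.000247). Eno2, the neuronal form, had 5.67, 5.04, 4.63 and 5.91 CPM in ko and 4.28, 4.48, 4.12 and 3.999 CPM in wild-type libraries at 72 h. Its groups did not overlap, but the log2 fold change of 0.46 was not called (edgeR adjusted p = 0.0886, and 0.0286 without ko 48 h replicate 4). Eno2 also passed in a fit of only the groups compared (edgeR adjusted p = 0.0121) and in limma-voom (limma-voom adjusted p = 0.0304).

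The 2 lactate dehydrogenase genes moved in opposite directions at 72 h. Ldha (chr7:46841475-46855627), the form that favours lactate production, had 3455, 3416, 3549.9 and 3376 CPM in ko and 3269, 3264, 3246 and 3264 CPM in wild-type libraries, with no overlap and a log2 fold change of 0.21 (SE 0.05, edgeR adjusted p = 0.00402). With library-size scaling it was 0.08 and not called (edgeR adjusted p = 0.16). Ldhb, the form that favours lactate use, had 8.67, 8.24, 12.1 and 9.73 CPM in ko and 11.8, 13.3, 13.7 and 13.4 CPM in wild-type libraries. Ko replicate 3 lay within the wild-type range and the other 3 below it, and the log2 fold change was -0.31 (SE 0.12, edgeR adjusted p = 0.0398). That call was lost without ko 72 h replicate 1, 2 or 4 or wt 72 h replicate 2, 3 or 4 (edgeR adjusted p up to 0.144). At 48 h neither gene was called; Ldhb stood at -0.26 (95% interval -0.49 to -0.04).

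Slc16a1, the lactate and pyruvate carrier MCT1, was lower in ko cells at 72 h, and Slc16a3, the export carrier MCT4, was not called. Slc16a1 (chr3:104638668-104658462) had 125, 122, 113 and 126 CPM in ko libraries at 72 h, against 152, 154, 151 and 159.7 CPM in wild type, and the groups did not overlap. The log2 fold change was -0.22 (SE 0.06, edgeR adjusted p = 0.00465). At 48 h the groups did not overlap either, at 227 to 247 CPM in ko and 253 to 262 CPM in wild-type cells, but the log2 fold change of -0.08 was not called (edgeR adjusted p = 0.431). Slc16a3 averaged 260.0 ± 11.4 CPM in ko and 262 ± 21.4 CPM in wild-type cells at 72 h (SD, n = 4 each), with a log2 fold change of 0.12 (edgeR adjusted p = 0.141) that passed with exon length offsets (0.19, edgeR adjusted p = 0.0132). Pdk1, the kinase that shuts pyruvate dehydrogenase, averaged 307 ± 19.9 CPM in ko and 302 ± 9.66 CPM in wild-type cells at 72 h (SD, n = 4 each). Its log2 fold change of 0.15 (edgeR adjusted p = 0.0847) passed without ko 48 h replicate 4 (edgeR adjusted p = 0.042) or ko 72 h replicate 4 (edgeR adjusted p = 0.0382). Pdk1 also passed with exon length offsets (0.27, edgeR adjusted p = 0.00547) and in a fit of only the groups compared (0.17, edgeR adjusted p = 0.0429).

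Glycogen phosphorylase, the enzyme that frees glucose 1-phosphate from glycogen, differed most in its liver form. Pygl (chr12:70190811-70231488) had 56.5, 55.6, 69.2 and 66.7 CPM in ko libraries at 72 h, against 34.6, 33.5, 37.3 and 34.3 CPM in wild type. It had 3.66, 4.33, 4.86 and 3.76 CPM in ko libraries at 48 h, against 1.88, 2.79, 2.49 and 2.27 CPM in wild type. Every ko library was above every wild-type library at both times. The log2 fold change was 0.96 at 72 h (SE 0.09, edgeR adjusted p = 4.92e-08) and 0.86 at 48 h (SE 0.13, edgeR adjusted p = 0.000127), and the interaction had a 95% interval of -0.22 to 0.41. The brain form Pygb (chr2:150786735-150831758) was lower in ko cells at 72 h, with 92.7, 95.7, 90.3 and 118 CPM, against 139, 132, 141 and 122 CPM in wild type. Its groups did not overlap and its log2 fold change was -0.30 (SE 0.08, edgeR adjusted p = 0.00581).

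Some markers of other cells were higher in ko cells, as Pygl was, and others were not. The 10 macrophage, monocyte and granulocyte markers summed to 16.4 to 21.7 CPM in ko and 6.65 to 7.90 CPM in wild-type cells at 72 h, and to 4.16 to 5.93 CPM in ko and 1.47 to 2.31 CPM in wild-type cells at 48 h. Nearly all of it came from 2 of the 10, Fcgr3 and Cd68, and the other 8 had a mean below 1 CPM. Fcgr3, an Fc receptor, averaged 8.92 ± 1.04 CPM in ko and 0.675 ± 0.133 CPM in wild-type cells at 72 h, and 3.46 ± 0.330 CPM in ko and 0.227 ± 0.113 CPM in wild-type cells at 48 h (SD, n = 4 each, as for the next 2 genes). Cd68, a lysosomal protein of macrophages, averaged 9.37 ± 1.45 CPM in ko and 6.29 ± 0.595 CPM in wild-type cells at 72 h, and 1.34 ± 0.595 CPM in ko and 1.47 ± 0.364 CPM in wild-type cells at 48 h. Of the 4 NK cell markers Klrb1c averaged 6.92 ± 0.755 CPM in ko and 4.37 ± 0.770 CPM in wild-type cells at 72 h, and 1.83 ± 0.246 CPM in ko and 0.809 ± 0.119 CPM in wild-type cells at 48 h, while the 4 summed to 37.8 to 43.9 CPM in ko and 52.2 to 61.2 CPM in wild-type cells at 72 h, and 45.1 to 58.0 CPM in ko and 47.3 to 53.1 CPM in wild-type cells at 48 h. Most of the NK marker sum was Eomes, at a mean of 33.9 CPM in ko and 50.8 CPM in wild-type cells at 72 h. At 48 h Eomes averaged 49.0 CPM in ko and 49.6 CPM in wild-type cells. At 72 h Klra8 averaged 0.520 ± 0.154 CPM in ko and 0.254 ± 0.0992 CPM in wild-type cells (SD, n = 4 each). Ncr1 averaged 0.252 ± 0.150 CPM in ko and 0.223 ± 0.110 CPM in wild-type cells (SD, n = 4 each). S100a8, S100a9 and Adgre1 were at 0 in all groups and Csf1r at a mean of 0.00753 CPM or less. The 6 B cell markers summed to 304 to 334 CPM in ko and 223 to 293 CPM in wild-type cells at 72 h, and to 284 to 317 CPM in ko and 246 to 257 CPM in wild-type cells at 48 h, nearly all of it Ighm, with 4 of the 6 at a mean below 1 CPM. The part of such cells in the Pygl difference was not tested.

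Of the genes that build glycogen, Gbe1 was higher in ko cells at 72 h under every alternative and Ugp2 only under some. Glycogen synthase itself was not called. Gbe1 (chr16:70313949-70569716), which puts in the branches, had 107, 100.0, 112 and 104 CPM in ko libraries at 72 h, against 91.0, 93.7, 93.3 and 82.6 CPM in wild type. The groups did not overlap and the log2 fold change was 0.36 (SE 0.08, edgeR adjusted p = 0.00151). At 48 h Gbe1 averaged 16.6 ± 2.31 CPM in ko and 14.1 ± 1.62 CPM in wild-type cells (SD, n = 4 each) and was not called at 0.28 (edgeR adjusted p = 0.0653), but it passed without ko 48 h replicate 4, wt 48 h replicate 2 or wt 72 h replicate 4 (edgeR adjusted p = 0.00886, 0.0302 and 0.0498). It also passed at 48 h with exon length offsets (edgeR adjusted p = 0.0439) and with no filter on low counts (edgeR adjusted p = 0.0282). Ugp2, which makes the UDP-glucose that glycogen grows from, had 53.0, 47.2, 59.6 and 53.8 CPM in ko and 44.6, 50.1, 50.4 and 51.1 CPM in wild-type libraries at 72 h, which overlap. Its log2 fold change was 0.25 (SE 0.09, edgeR adjusted p = 0.0314), and the call was lost with library-size scaling (0.12, edgeR adjusted p = 0.254) and without ko 72 h replicate 1, 3 or 4 or wt 72 h replicate 1 or 3 (edgeR adjusted p up to 0.133). Gys1, the glycogen synthase of muscle and most tissues, averaged 39.1 ± 5.36 CPM in ko and 44.2 ± 3.18 CPM in wild-type cells (SD, n = 4 each), with a 95% interval of -0.24 to 0.13 for the log2 fold change.

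The last 2 glycogen calls at 72 h were close to the threshold. Pygm, the muscle phosphorylase, had 9.46, 6.46, 7.36 and 6.24 CPM in ko and 5.78, 5.74, 7.66 and 4.67 CPM in wild-type libraries, which overlap, with a log2 fold change of 0.44 (SE 0.17, edgeR adjusted p = 0.0493). The Pygm call was lost with library-size scaling (0.31, edgeR adjusted p = 0.167) and without ko 48 h replicate 3, wt 48 h replicate 2, 3 or 4, ko 72 h replicate 1 or 3 or wt 72 h replicate 1, 2 or 4 (edgeR adjusted p up to 0.218). Pgm2, a member of the phosphoglucomutase family, had 37.3, 36.2, 40.4 and 38.8 CPM in ko and 36.1, 36.4, 40.2 and 34.2 CPM in wild-type libraries, which overlap, with a log2 fold change of 0.18 (SE 0.07, edgeR adjusted p = 0.0428). The Pgm2 call was lost with library-size scaling (0.05, edgeR adjusted p = 0.601), with exon length offsets (0.14, edgeR adjusted p = 0.124) and without ko 48 h replicate 2, wt 48 h replicate 1, 3 or 4, ko 72 h replicate 1, 3 or 4 or wt 72 h replicate 1, 2 or 4 (edgeR adjusted p up to 0.132).

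**Figure D3:**
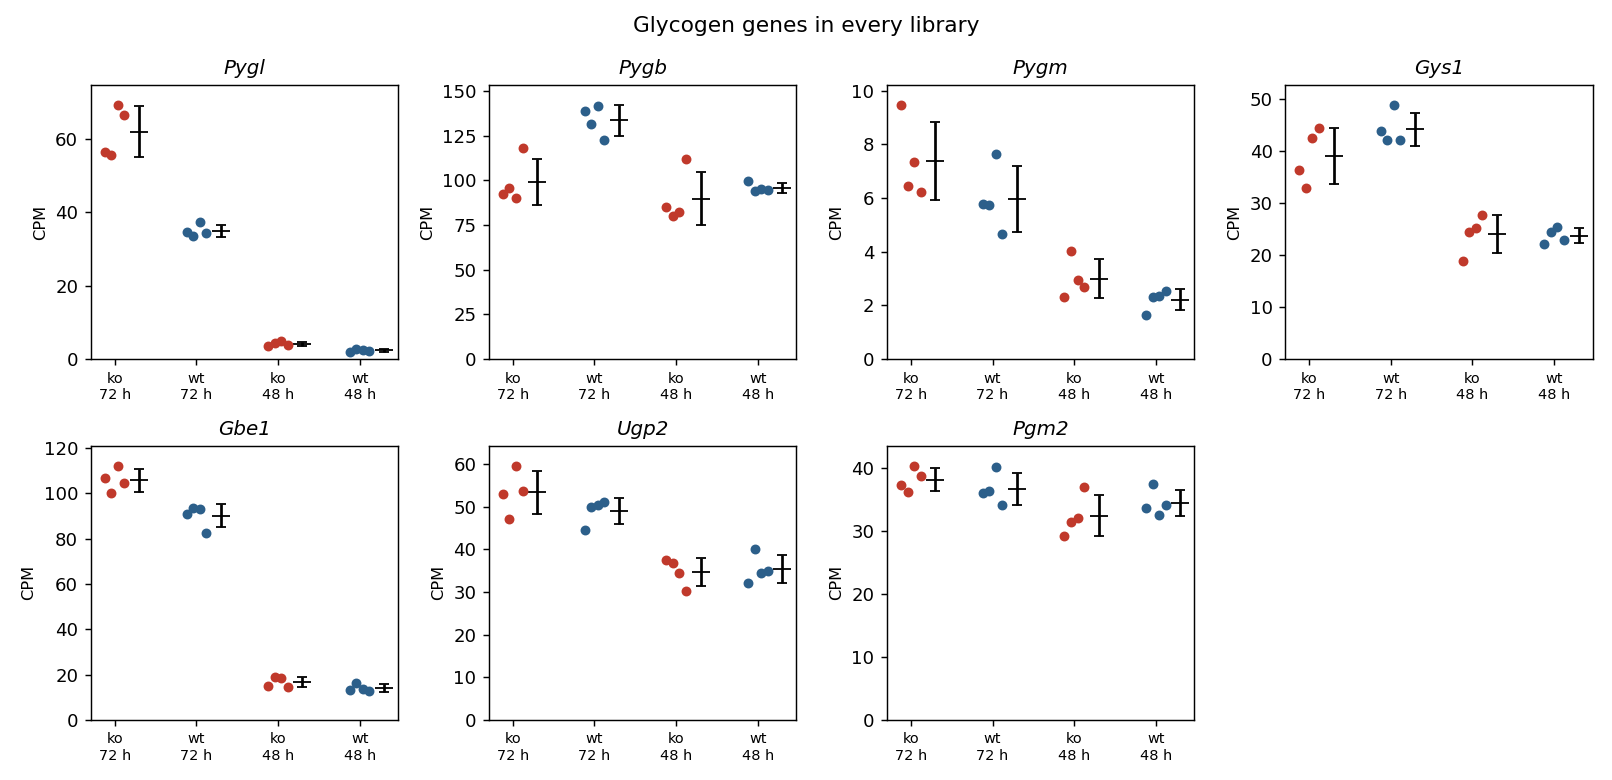
CPM (y axis, from 0) in each library of the 4 groups (x axis, ko red and wild type blue) for the 7 glycogen genes; each point is 1 library and the black bar is the mean with its SD. Pygl and Gbe1 lie above wild type in all 4 ko libraries at 72 h and Pygb below it, and Pygl and Gbe1 are several times higher at 72 h than at 48 h in both genotypes.

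Between 48 h and 72 h most of these genes rose in both genotypes, some of them by more than 10-fold. In ko cells 27 of the 34 rows were higher at 72 h and 5 lower, against a background of 68.0% of all genes called (34.4% higher and 33.6% lower). In wild-type cells 25 were higher and 2 lower, against 63.6% called (33.6% higher and 29.9% lower). The median log2 fold change of 72 h over 48 h was 0.68 over the rows and 0.0286 over all genes in ko cells, and 0.55 over the rows and 0.0544 over all genes in wild-type cells. Changes of at least 2-fold numbered 13 rows in ko cells, where 21.9% of all genes changed that far, and 8 in wild-type cells, where 17.5% did. Together the 34 rows held 3.12% ± 0.0241 of all counts in ko cells and 2.77% ± 0.128 in wild-type cells at 72 h, and 2.19% ± 0.0822 in ko and 2.22% ± 0.0609 in wild-type cells at 48 h (SD, n = 4 each).

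The largest rises were in Pygl, Aldoc, Gbe1 and Slc2a3. Pygl rose by a log2 fold change of 3.96 (SE 0.11) in ko cells and 3.86 (SE 0.12) in wild-type cells. Aldoc rose by 3.69 (SE 0.10) in ko and 3.87 (SE 0.10) in wild-type cells. Gbe1 rose by 2.73 (SE 0.09) in ko and 2.65 (SE 0.09) in wild-type cells, and Slc2a3 by 2.39 (SE 0.07) in ko and 2.62 (SE 0.07) in wild-type cells; the highest edgeR adjusted p of these 8 values was 2.06e-17. Eno2 rose by 2.22 in ko and 1.70 in wild-type cells, with a 48 h level of 1.21 ± 0.670 CPM in ko and 1.27 ± 0.309 CPM in wild-type cells (SD, n = 4 each).

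Ldha and Slc16a1 were lower at 72 h than at 48 h in both genotypes. Ldha had 3376 to 3549.9 CPM at 72 h and 4002 to 4167 CPM at 48 h in ko cells, and 3246 to 3269 CPM at 72 h and 3931 to 4147 CPM at 48 h in wild-type cells. The log2 fold change of Ldha was -0.18 in ko (edgeR adjusted p = 0.00448) and -0.35 in wild-type cells (edgeR adjusted p = 4.86e-06); with exon length offsets the call in ko cells was lost (edgeR adjusted p = 0.945). Slc16a1 fell to 121 ± 6.02 CPM at 72 h, against 237 ± 9.47 CPM at 48 h, in ko cells, and to 154 ± 3.96 CPM at 72 h, against 258 ± 3.93 CPM at 48 h, in wild-type cells (SD, n = 4 each). Slc2a6, Hk2 and Eno3 passed the test as lower at 72 h in ko cells (-1.84, -0.75 and -0.60) and not in wild-type cells (-0.22, -0.20 and -0.03). The difference between the genotypes is the interaction given above, which passed for Slc2a6 and Eno3 and not for Hk2. Without ko 48 h replicate 4 the fall of Hk2 in wild-type cells passed too (-0.21, edgeR adjusted p = 0.0218). Pfkl and Pgam1 were not called between the times in either genotype.

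**Figure D4:**
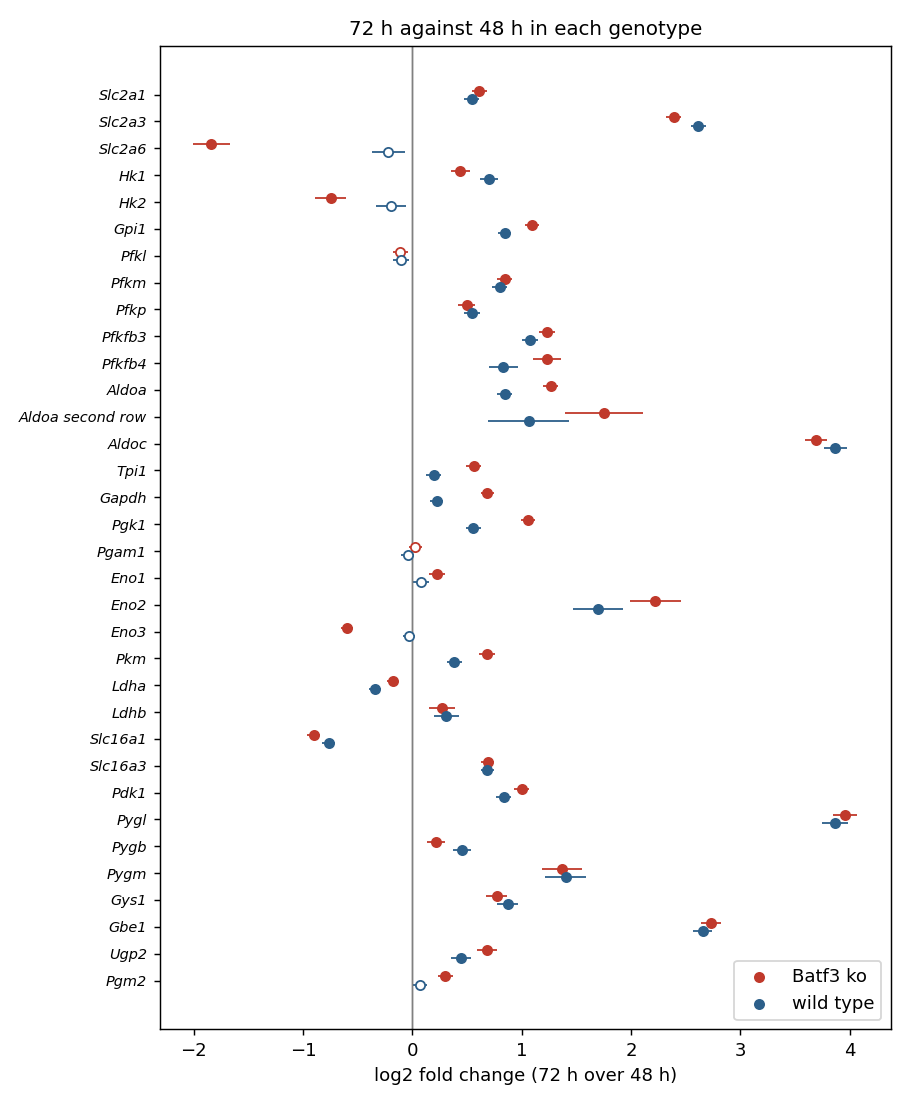
Log2 fold change of 72 h over 48 h (x axis) for the 34 rows in pathway order (y axis), with ko cells in red and wild-type cells in blue; lines are standard errors, filled points passed an adjusted p of 0.05 and open points did not. Pygl and Aldoc lie beyond 3.5 in both genotypes, and Slc2a6 at -1.84 in ko cells lies farthest to the left.

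Levels were compared between genes per kb of exon, the joined length of all annotated exons of a gene, which can exceed that of the transcripts in use: Gapdh has 4133 bases of it. On that scale the most abundant members at 72 h were Pgk1 and Gapdh, while in CPM, without length, Gapdh averaged 6831 ± 268 in ko and 5537 ± 314 in wild-type cells and Pgk1 3804 ± 214 in ko and 3015 ± 39.3 in wild-type cells. In ko cells Pgk1 reached 1695 ± 95.3 and Gapdh 1653 ± 64.9 CPM per kb of exon, which differ by less than their spread (SD, n = 4 each, here and below). In wild-type cells Pgk1 reached 1343 ± 17.5 and Gapdh 1339.8 ± 75.9 CPM per kb. Next came Ldha, with 1042 ± 22.5 CPM per kb in ko and 985 ± 3.11 CPM per kb in wild-type cells. Aldoa, with 863 ± 20.1 CPM per kb in ko and 695 ± 69.8 CPM per kb in wild-type cells, and Pkm, with 807 ± 15.3 CPM per kb in ko and 662 ± 42.5 CPM per kb in wild-type cells, followed. At 48 h Ldha was the highest, at 1237 ± 24.3 CPM per kb in ko and 1229 ± 30.5 CPM per kb in wild-type cells.

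Within a step, the isozyme makeup moved more with time than with genotype in the glucose carriers, the hexokinases, phosphofructokinase, aldolase and the lactate carriers, as shares of the step's CPM per kb. Slc2a3 made up 66.3% ± 0.727 of the 3 carriers' RNA in ko and 68.0% ± 0.813 in wild-type cells at 72 h, and 34.9% ± 0.945 in ko and 32.7% ± 0.804 in wild-type cells at 48 h (SD, n = 4 each, as for all shares). Hk1 made up 62.6% ± 1.54 of the hexokinase pair in ko and 57.7% ± 0.942 in wild-type cells at 72 h, and 42.8% ± 2.95 in ko and 42.3% ± 1.21 in wild-type cells at 48 h. Slc16a3 made up 64.1% ± 0.756 of the lactate carrier pair in ko and 58.5% ± 2.66 in wild-type cells at 72 h, and 37.2% ± 1.68 in ko and 34.1% ± 1.56 in wild-type cells at 48 h. Pfkl made up 33.6% ± 0.809 of phosphofructokinase RNA in ko and 34.6% ± 1.19 in wild-type cells at 72 h. At 48 h its share was 44.9% ± 2.23 in ko and 46.5% ± 0.344 in wild-type cells. Which isozyme of a pair holds more depends on the exon lengths used. Without division by length Slc2a3 was already above Slc2a1 at 48 h (173 ± 1.52 against 144 ± 5.36 CPM in ko cells and 152 ± 9.44 against 137 ± 7.77 CPM in wild-type cells). Hk1 and Hk2 were then at similar levels (127 ± 23.4 and 121 ± 39.2 CPM in ko cells and 129.6 ± 5.64 and 124 ± 4.83 CPM in wild-type cells).

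At 72 h glycogen phosphorylase was the step, of the 9 with more than 1 isozyme, whose shares differed most between genotypes. Pygl made up 28.2% ± 2.71 of the 3 forms in ko and 14.6% ± 0.690 in wild-type cells at 72 h, and 3.04% ± 0.678 in ko and 1.63% ± 0.292 in wild-type cells at 48 h. Pygb still held the largest share, 64.5% ± 3.34 in ko and 80.1% ± 0.800 in wild-type cells at 72 h. Eno3 made up 7.51% ± 0.230 of enolase RNA in ko and 10.04% ± 0.677 in wild-type cells at 72 h. Aldoc made up 5.04% ± 0.560 of aldolase RNA in ko and 5.65% ± 0.472 in wild-type cells at 72 h, and 0.974% ± 0.108 in ko and 0.725% ± 0.0404 in wild-type cells at 48 h, while Ldha held 99.4% ± 0.0928 of lactate dehydrogenase RNA in ko and 99.2% ± 0.0559 in wild-type cells at 72 h.

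**Figure D5:**
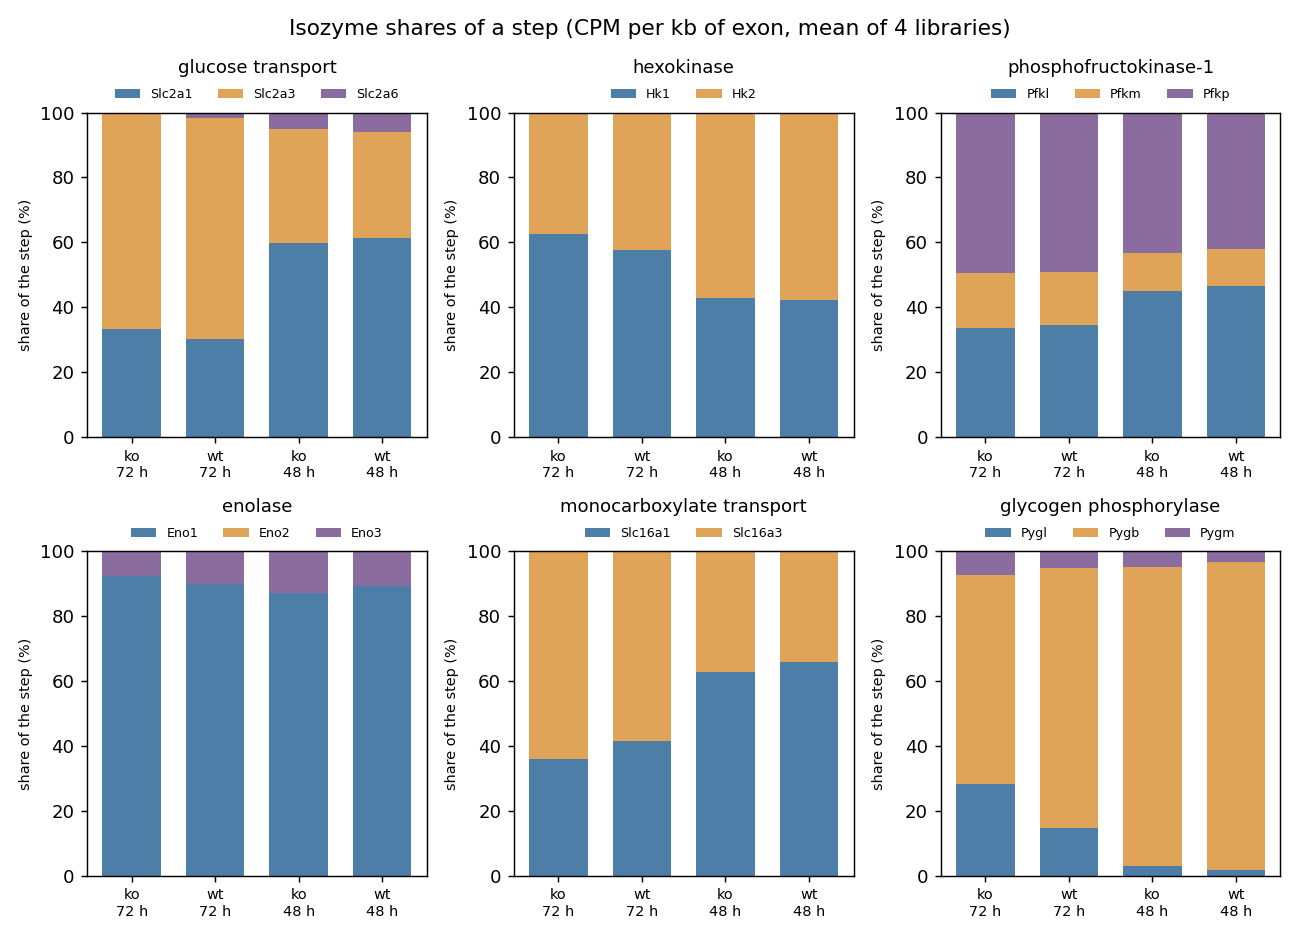
Share of each isozyme in the summed CPM per kb of exon of its step (y axis, percent, mean of 4 libraries) in the 4 groups (x axis) for 6 steps. Pygl holds 28.2% of glycogen phosphorylase RNA in ko and 14.6% in wild-type cells at 72 h, and the shares of Slc2a3, Hk1 and Slc16a3 are higher at 72 h than at 48 h in both genotypes.

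The difference between isozymes was tested on 12 pairs at each time, as the log2 ratio of the 2 genes' CPM within each library with 0.5 CPM added to each so that library size nearly cancels. Of the 24 tests, 10 gave p = 0.0286 in a two-sided exact permutation test, the smallest that 4 libraries against 4 allow, and none passed after Benjamini-Hochberg adjustment over the 24 (adjusted p = 0.0686 for each of the 10, exact permutation test). With that smallest p, a pair could not pass the adjustment on its own however far its groups lay apart. The adjusted result therefore decides nothing on isozyme shifts. In these 10 tests the ko and wild-type ratios did not overlap, 7 of them at 72 h and 3 at 48 h. The largest was Pygl over Pygb, with a log2 ratio of -0.67 ± 0.20 in ko and -1.92 ± 0.07 in wild-type cells at 72 h and -4.27 ± 0.35 in ko and -5.09 ± 0.24 in wild-type cells at 48 h (SD, n = 4 each). Differences of ko minus wild type at 72 h were 0.51 for Ldha over Ldhb, 0.45 for Eno1 over Eno3, 0.29 for Hk1 over Hk2 and 0.18 for Slc2a1 over Slc2a3. They were -0.33 for Slc16a1 over Slc16a3 and -0.29 for Eno1 over Eno2. At 48 h the difference was -0.41 for Aldoa over Aldoc and 0.29 for Ldha over Ldhb, the same direction for Ldha over Ldhb as at 72 h. The phosphofructokinase pairs had p-values from 0.2 to 0.6 in the exact permutation test.

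Genes of neighbouring pathways, in 5 lists with 84 genes of which 66 were tested, were called in both directions. At 72 h 10 were higher and 16 lower in ko cells, and at 48 h edgeR and limma-voom called 0 of them, while DESeq2 called 1 higher and 2 lower; at an unadjusted p below 0.05 in edgeR 4 were higher and 8 lower at 48 h. The medians of the 5 lists at 72 h ran from -0.19 to -0.04 on the log2 scale, against -0.0154 over all genes, of which 36.4% were called. In the list drawn up for glycogen metabolism, not all of whose genes act only on glycogen, 4 of 18 tested were higher and 2 lower. These were the glycogen-binding protein Stbd1 (1.13, SE 0.23), the phosphatase targeting subunit Ppp1r3b (0.31), the primer Gyg (0.20) and Pgm1 (0.18) as higher, and Pgm3 (-0.31) and the lysosomal glucosidase Gaa (-0.25) as lower. Of 18 other genes of glycolysis and its transport, 2 were higher, Bsg (0.47, SE 0.06) and Emb (0.46, SE 0.06), the membrane partners of the lactate carriers, and 3 were lower. The lower ones were Tigar (-0.55, SE 0.09), which removes fructose 2,6-bisphosphate, the ADP-dependent glucokinase Adpgk (-0.43) and the muscle mutase Pgam2 (-0.74).

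Of 12 tested genes of pyruvate entry into mitochondria, the carrier subunit Mpc2 (0.21) was higher and 3 were lower: Pdhx (-0.25), a subunit of the pyruvate dehydrogenase complex, and Pdp2 (-0.42) and Pdpr (-0.36), the phosphatase that activates it and that phosphatase's regulatory subunit. Of the 10 pentose phosphate genes, all tested, Pgls (0.26) and the transketolase Tkt (0.18) were higher. Pgd (-0.25), H6pd (-0.26), Rpia (-0.46) and the transaldolase Taldo1 (-0.14) were lower. Of 8 tested regulators of glucose metabolism, Mlx (0.18) was higher, and Epas1 (-1.13, SE 0.12), which encodes the hypoxia factor HIF-2α, Mlxip (-0.44), Mtor (-0.35) and Myc (-0.33) were lower. Epas1 averaged 11.6 ± 1.92 CPM in ko and 27.8 ± 2.46 CPM in wild-type cells at 72 h, and 6.00 ± 1.05 CPM in ko and 6.02 ± 0.865 CPM in wild-type cells at 48 h (SD, n = 4 each). All these values are log2 fold changes from the edgeR fit over all genes at 72 h, and each gene named had an adjusted p below 0.05.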

How the data were processed

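Sequencing of 16 poly-A libraries from mouse CD8 T cells was analysed. The submitters' processing notes list bcl2fastq 2.2.0, STAR 2.7, featureCounts and GRCm38; per the labels, libraries were stranded. The authors deposited raw read counts per gene, as whole numbers. Which annotation release was used, whether counting used strand and how reads with several matches were treated is not given in the sources used here; overlapping genes and those with close copies are uncertain. Positions and exon lengths are those of GENCODE M21, which holds 55154 of the 55335 identifiers.

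CPM are counts over library totals. One edgeR 4.0.16 fit in R 4.3.3 held the 16 libraries in the 4 labelled groups, with TMM scaling, genes kept by filterByExpr at 10 counts, and robust two-sided quasi-likelihood F tests adjusted over 15197 genes. Standard errors are the log2 fold change over the square root of F. At 29375818 to 39241169 counts a library, 3 counts equal 0.0765 to 0.102 CPM, a limit for counting error only. No 2 libraries of a group were duplicates (chi-square per degree of freedom 5.65 to 36.7). Isozyme ratios were compared by exact permutation tests (scipy 1.17.1). Members called between genotypes or in the interaction are given in every library; genes of neighbouring pathways are named where called between genotypes. Members and lists were chosen with earlier results of these data known. As alternatives, scaling by median ratios or library size, DESeq2 1.42.0, voom in limma 3.58.1, other filters and pseudocounts, fits of only the groups compared, a replicate block, exon length offsets, and fits without each library or without both that stand apart were run. The edgeR script was tested on simulated counts.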

Additional observations from a re-analysis of the deposited data

Results flagged for a closer look

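Single libraries lay far from the other 3 of their group, by Dixon's gap test at the 95% level, in 8 of 136 groups of CPM values; chance alone flags about 1 in 20. In ko 48 h replicate 4, 3 members were higher than in the other ko libraries at 48 h. Hk2 stood at 179 CPM there (others 95.0 to 109 CPM), Pkm at 3222 CPM (others 2402 to 2513 CPM) and Pygb at 112 CPM (others 80.0 to 85.0 CPM). The second Aldoa row stood at 2.16 CPM in ko 72 h replicate 3 (others 1.35 to 1.45 CPM) and Pfkfb4 at 7.25 CPM in ko 72 h replicate 1 (others 10.1 to 10.4 CPM). In wild type, Eno1 stood at 2647 CPM in 48 h replicate 2 (others 2806 to 2816 CPM), Eno3 at 100.0 CPM in 72 h replicate 2 (others 109 to 111 CPM) and Ugp2 at 44.6 CPM in 72 h replicate 1 (others 50.1 to 51.1 CPM).

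The ko effect differed between 72 h and 48 h, by the interaction of genotype and time in edgeR, for 6 members. On the log2 scale it was -1.62 for Slc2a6, -0.57 for Eno3, 0.50 for Pgk1, 0.46 for Gapdh, 0.42 for Aldoa and 0.36 for Tpi1.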

How the results depend on the processing

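No gene's fold change reversed a call under any of the alternatives run, and the isozyme ratios had no call to reverse. Of 4693 values recomputed for single genes and pairs, 4537 kept their side of the threshold, 59 passed only under the alternative and 97 only in the fit reported. The 4537 include the isozyme ratios, none of which passed in any setting, and fits without a library outside the groups compared. Without ko 48 h replicate 4 and wt 72 h replicate 4 the interaction called 10 members (6 higher and 4 lower) instead of 6, since Hk2, Slc2a3, Gpi1 and Pkm joined. Leaving out 1 library at a time gave 16 to 25 members called between ko and wild type at 72 h, 3 to 5 at 48 h, 29 to 32 between the times in ko and 24 to 28 in wild-type cells, and 5 to 10 in the interaction, the highest without ko 48 h replicate 4. Calls kept under every alternative numbered 13 of 21 at 72 h (Slc2a6, Hk2, Pfkfb4, Aldoa, Tpi1, Gapdh, Pgk1, Eno3, Pkm, Slc16a1, Pygl, Pygb and Gbe1), 3 of 4 at 48 h (Aldoc, Eno3 and Pygl), 28 of 32 between the times in ko and 24 of 27 in wild-type cells, and 5 of 6 in the interaction (all but Tpi1). Isozyme ratios past the threshold stayed at 0, but leaving out a library allows no p under 0.0571 in the exact permutation test and same-numbered pairs none under 0.125, so these say nothing on stability. Correlations of same-numbered deviations between groups ran from -0.26 to 0.28, with 6 of 16 above 0.1. Differently numbered libraries were not compared in this way, so whether the replicate numbers pair the libraries is not decided. With the replicate block 12 members were higher and 7 lower at 72 h, 3 and 0 at 48 h, and 4 and 2 in the interaction. The calls the block ended between genotypes were Slc2a3 at 48 h (edgeR adjusted p = 0.0568) and Pgm2 (0.0527) and Pygm (0.0544) at 72 h. The interaction could not be fitted on only the groups compared, as it uses all 4. Members near or below 1 CPM, such as the second Aldoa row and Eno2 at 48 h, are limited by depth.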
